A study of Mus musculus with 6 samples.

Results

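Kinesins and cytoplasmic dyneins are the motor proteins that carry organelles, vesicles and protein complexes along microtubules. Most kinesins walk towards the plus ends of microtubules, which in an axon point away from the cell body, and dynein walks towards the minus ends, back to the cell body. Dynactin is the large complex that joins dynein to many of its cargoes. Sensory neurons of the trigeminal ganglion send axons to the skin and membranes of the head, and material for those endings travels on these motors.

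The motor genes were taken from the deposited gene table by name: protein-coding genes of the kinesin heavy chains (Kif and Kifc), the kinesin light chains (Klc), the cytoplasmic dynein chains (Dync and Dynl) and the dynactin subunits (Dctn). The naming rule found 61 genes among the 16415 in the table, namely 36 kinesin heavy chains, 4 kinesin light chains, 15 dynein chains and 6 dynactin subunits. All 61 passed the filter on low values and were tested.

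The series concerns SETDB2, KLF4, IDE and CGRP in sensory neurons and migraine. Messenger RNA was sequenced from mouse trigeminal ganglion, the sensory ganglion of the face, in 3 libraries labelled SETDB2-up and 3 labelled NC-up. All 6 carry the wild-type genotype label. The labels do not spell out either treatment name, the way it was given, or the animals' strain, sex or age. Nothing in the labels says that the libraries of a group came from separate animals, and the p-values describe only how far these libraries scatter, which may be technical.

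Values are normalised read counts: reads per gene that the authors divided by 1 factor per library. Depth was 20355707 to 23501386 recovered reads in SETDB2-up and 19334997 to 23395693 in NC-up libraries. Setdb2 itself had 113, 97.6 and 104 normalised reads in SETDB2-up against 69.9, 58.4 and 71.5 in NC-up libraries (log2 fold change 0.65 ± 0.19 SE, adjusted p = 0.0253 in limma). SETDB2-up libraries 1 and 2 hold liver transcripts: the sum over 10 liver genes ran from 81.2 (library 3) to 6245 (library 2) normalised reads in SETDB2-up and from 46.0 to 53.6 in NC-up libraries. The 12 neuron markers were all detected, with sums of 462022 to 479855 in SETDB2-up and 463924 to 488955 in NC-up libraries. Of those 12, Scn9a rose (0.28 on the log2 scale), Rbfox3 fell (-0.38) and 10 did not pass. Markers of other cells also moved with the groups. Of 6 Schwann cell markers 3 fell and 3 did not pass, 1 of those with a positive fold change. Among those that fell were the myelin genes Mag (-0.33 ± 0.07 SE, adjusted p = 0.00583 in limma) and Prx (-0.18 ± 0.05 SE, adjusted p = 0.0324 in limma). Of the satellite glia markers 0 of 6 passed in limma, with sums of 91854 to 110468 in SETDB2-up and 104786 to 108275 in NC-up libraries. Among fibroblast markers 3 of 6 fell, all of them collagen genes, and the other 3, at 0.00 to 0.15, did not pass. The fibroblast sums overlapped, at 21050 to 24693 in SETDB2-up and 24070 to 28808 in NC-up libraries. Of the keratinocyte markers 4 of 5 fell (sums of 114 to 127 in SETDB2-up and 173 to 518 in NC-up libraries). Of the muscle markers 3 of 5 fell (46.8 to 112 in SETDB2-up and 97.5 to 258 in NC-up libraries). No listed marker in the table was at 0 in all 6 libraries. The part of these tissues in the motor gene results was not tested, apart from the values without SETDB2-up libraries 1 and 2 given below. In bulk tissue, fewer cells of a type and less RNA per cell cannot be told apart.

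Few motor genes changed, and the changes were small. At an adjusted p under 0.05 (limma, all genes tested together), 7 of the 61 rose in SETDB2-up libraries, which is 11.5%, beside 7.71% of all 16387 tested genes. Another 3 fell, which is 4.92%, beside 8.71% of all tested genes. Both shares lie near those of all genes. The risers were Kif1b, Kif21a and Kif2a among the kinesins, Dync1i2 and Dync1li2 of cytoplasmic dynein, Dync2h1 of the ciliary dynein, and the dynactin subunit Dctn4. The 3 that fell were Kifc2, Kifc3 and Kif19a. Their sizes ran from 1.13-fold to 1.30-fold in either direction, with a median of 1.19-fold, and the median over all called genes was 1.26-fold. Over the 61 members the median log2 fold change was 0.07, beside 0.00 over all tested genes.

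The calls changed when single libraries were left out, and when base composition was corrected (given at the end). Without SETDB2-up library 1, 0 motor genes rose in limma (2.53% of all tested genes) and 1, Kifc3, fell (4.08%). At an unadjusted p under 0.05 that fit had 11 motor genes higher (18.0%, beside 10.3% of all tested genes) and 4 lower (6.56%, beside 11.8%). With SETDB2-up libraries 1 and 2 both left out, which leaves a single library whose spread is assumed to be that of NC-up, 0 rose (0.891%) and 0 fell (1.84%) in limma. At an unadjusted p under 0.05, 5 were higher there (6.18% of all tested genes) and 2 lower (8.07%). The log2 fold changes in that fit were 0.26 for Dctn4, 0.19 for Dync1li2 and -0.33 for Kifc2. Each of these was about as large as with all libraries or larger. All other called genes had smaller changes in that fit than with all libraries. Among them were the risers Dync2h1 at 0.23, Kif2a at 0.14, Kif21a at 0.12, Kif1b at 0.11 and Dync1i2 at 0.10. The fallers Kifc3 and Kif19a were at -0.28 and -0.17. At an unadjusted p under 0.05 with all 6 libraries, 15 were higher (24.6%, beside 14.9% of all tested genes) and 6 lower (9.84%, beside 15.7%).

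**Figure D1:**
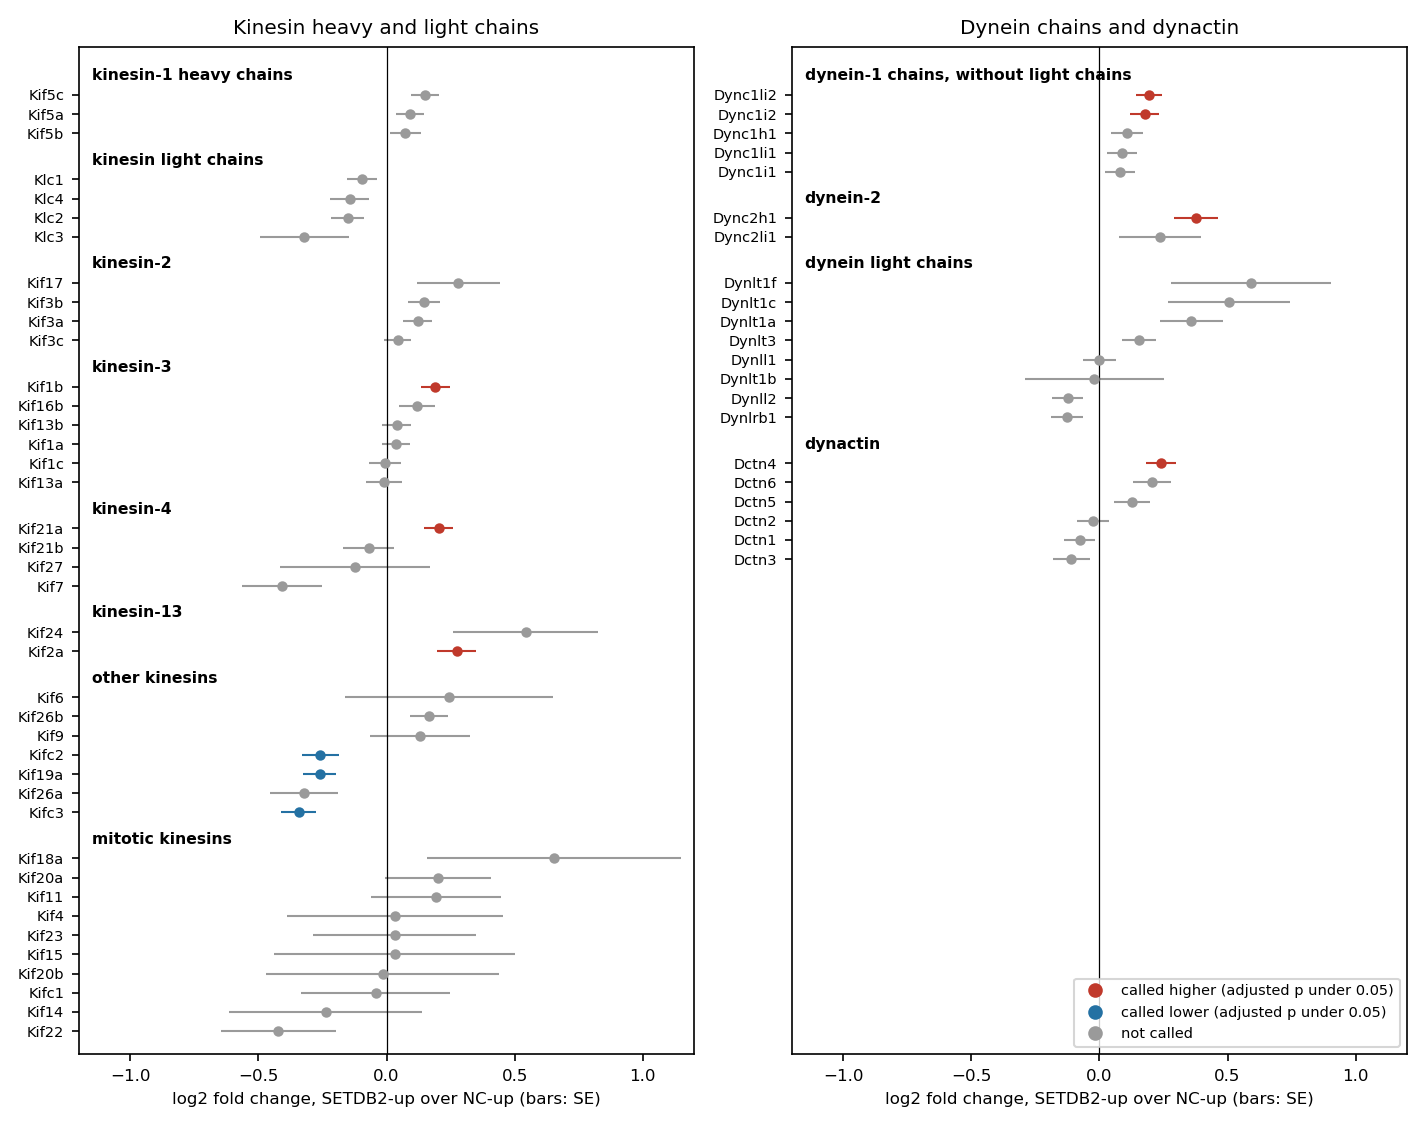
Log2 fold change (SETDB2-up over NC-up, horizontal axis) of each of the 61 motor genes, grouped by role, with bars for the standard error. Genes called higher (7) are red, genes called lower (3) are blue and the 51 that did not pass are grey, and the widest bar is that of the mitotic kinesin Kif18a.

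The motor genes together held 1.92%, 1.96% and 1.90% of the recovered reads in SETDB2-up libraries 1 to 3, against 1.84%, 1.87% and 1.86% in NC-up libraries. All SETDB2-up libraries lay above all NC-up libraries. Kif5a, Kif1b, Klc1, Kif1a and Dync1h1 make up much of that share, with 0.978%, 1.02% and 0.961% in SETDB2-up against 0.939%, 0.949% and 0.934% in NC-up libraries. The kinesin heavy chains held 1.02%, 1.04% and 0.978% in SETDB2-up against 0.928%, 0.948% and 0.945% in NC-up libraries. The kinesin light chains overlapped, with 0.239%, 0.237% and 0.260% in SETDB2-up against 0.257%, 0.264% and 0.271% in NC-up libraries. As single genes, 16 of the 61 (26.2%) had every SETDB2-up value above every NC-up value, beside 16.8% of all tested genes, and 6 (9.84%) had every SETDB2-up value below, beside 16.4%.

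Levels can be compared between genes only per transcript length. Klc1 was the most abundant motor transcript on that scale, at 15039.9 ± 814 normalised reads per kb in SETDB2-up and 16056 ± 483 in NC-up libraries (SD, n = 3 each). It ranked at place 31 of the 15541 genes with a transcript length. Dynll2 followed at 9200.3 ± 602 in SETDB2-up and 10023 ± 574 in NC-up libraries, then Kif1b at 6741 ± 356 in SETDB2-up and 5903 ± 134 in NC-up libraries. Kif5a stood at 5985 ± 79.7 per kb in SETDB2-up and 5619.9 ± 143 in NC-up libraries, and Kif1a at 4899.6 ± 183 in SETDB2-up and 4777 ± 75.9 in NC-up libraries. Per length, then, the kinesin light chain and the dynein light chain Dynll2 stood above every heavy chain, and the 3 large axonal kinesins followed. At the other end, 17 members averaged under 100 normalised reads, most of them kinesins of cell division, and none of these 17 was called.

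To show the sequence context of called genes, the stretch around the transcription start is printed for 3 of the risers with an entry in the RefSeq promoter table, 1 of dynein and 2 of kinesins, as the first window listed (GRCm38.p6, 250 bases before to 50 after the start). Of the 61 members 45 have an entry, with 52 windows in all. Capitals mark CACCC or its reverse complement GGGTG, the box that Kruppel-like factors bind. They are marked because the study's title names KLF4.

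Dync2h1 promoter, chr9:7177009-7177308, minus strand: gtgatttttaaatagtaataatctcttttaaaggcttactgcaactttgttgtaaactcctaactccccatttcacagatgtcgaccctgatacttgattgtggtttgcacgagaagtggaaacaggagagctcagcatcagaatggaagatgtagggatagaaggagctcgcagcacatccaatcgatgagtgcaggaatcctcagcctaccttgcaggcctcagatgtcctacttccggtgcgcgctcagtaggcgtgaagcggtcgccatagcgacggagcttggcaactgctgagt

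Kif21a promoter, chr15:91049902-91050201, minus strand: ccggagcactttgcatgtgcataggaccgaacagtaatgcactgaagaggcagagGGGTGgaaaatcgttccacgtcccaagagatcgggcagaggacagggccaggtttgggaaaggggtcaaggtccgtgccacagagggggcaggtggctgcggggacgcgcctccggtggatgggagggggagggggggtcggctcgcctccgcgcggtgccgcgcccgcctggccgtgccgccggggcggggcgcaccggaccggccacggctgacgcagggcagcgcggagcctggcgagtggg

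Kif2a promoter, chr13:107022306-107022605, minus strand: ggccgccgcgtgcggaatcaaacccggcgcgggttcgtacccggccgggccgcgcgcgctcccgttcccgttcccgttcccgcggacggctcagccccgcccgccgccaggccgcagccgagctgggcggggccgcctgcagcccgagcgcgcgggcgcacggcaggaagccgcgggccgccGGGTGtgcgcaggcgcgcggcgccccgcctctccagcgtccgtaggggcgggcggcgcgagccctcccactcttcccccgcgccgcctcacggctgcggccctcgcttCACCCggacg

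The Dync2h1 window holds 0 matches and is 48.3% GC, the Kif21a window holds 1 and is 71.0% GC, and the Kif2a window holds 2 and is 81.7% GC. A match was present in 57.5% of the 32851 promoter windows of 300 bases and in 57.7% of those of the motor genes, so the motor genes carried the box at the common rate.

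Positions given below are in GRCm38. Kinesin-1 is the classic plus-end motor of axonal transport, and the mouse has 3 genes for its heavy chain. Kif5a, the form enriched in neurons (chromosome 10, 127225695 to 127266348), had 37205, 38204 and 37625 normalised reads in SETDB2-up against 34617, 35149 and 36367 in NC-up libraries. Every SETDB2-up library was above every NC-up library, but the log2 fold change of 0.09 ± 0.05 (SE) did not pass (adjusted p = 0.263 in limma). Kif5c, also a neuronal form (chromosome 2, 49619286 to 49774778), had 19245, 19473 and 19307 in SETDB2-up against 16441, 18015 and 17893 in NC-up libraries. Its groups did not overlap either, and at 0.15 ± 0.05 (SE) it did not pass (adjusted p = 0.0665 in limma). Kif5b, the form found in most tissues (chromosome 18, 6201005 to 6241524), had 11795, 11608 and 10725 in SETDB2-up against 10081, 10950.3 and 11414 in NC-up libraries. These overlap, with a log2 fold change of 0.07 ± 0.06 (SE, adjusted p = 0.432 in limma).

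Per transcript length Kif5a made up 56.0% ± 0.583 of the kinesin-1 heavy chain reads in SETDB2-up and 56.5% ± 0.918 in NC-up libraries (SD, n = 3 each). Kif5c made up 26.4% ± 0.224 in SETDB2-up and 25.6% ± 0.590 in NC-up libraries, and Kif5b 17.6% ± 0.759 in SETDB2-up and 18.0% ± 0.481 in NC-up libraries. The order Kif5a, Kif5c, Kif5b held in each of the 6 libraries.

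The light chains, which hold cargo for kinesin-1, all had negative fold changes and none passed. Klc1 (chromosome 12, 111758435 to 111807844) had 36646, 36329 and 40005 in SETDB2-up against 39116, 39992 and 41508 in NC-up libraries, which overlap (log2 fold change -0.10 ± 0.06 SE, adjusted p = 0.277 in limma). Klc2 had a log2 fold change of -0.15 ± 0.06 (SE, adjusted p = 0.120), Klc4 of -0.14 ± 0.08 (adjusted p = 0.210) and Klc3 of -0.32 ± 0.17 (adjusted p = 0.222). Klc3 is low, at 83.6 to 108 normalised reads in SETDB2-up and 114 to 128 in NC-up libraries, and lies opposite the more abundant Ercc2. Klc1 held 77.8% ± 0.715 of the light chain reads per length in SETDB2-up and 77.1% ± 0.589 in NC-up libraries (SD, n = 3 each). All 4 light chains have GC-rich transcripts. After the correction for base composition described below, Klc2, Klc4 and Klc1 had positive fold changes, at 0.09, 0.06 and 0.03. Klc3 was at -0.006 after that correction.

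The kinesin-3 motors carry synaptic vesicle precursors, dense-core vesicles and other cargo. Kif1b, which moves mitochondria and vesicle precursors (chromosome 4, 149176319 to 149307773), had 40711, 42344 and 38114 normalised reads in SETDB2-up against 34533, 36127 and 35448 in NC-up libraries. All SETDB2-up values lay above all NC-up values. Its log2 fold change was 0.19 ± 0.06 (SE, adjusted p = 0.0276 in limma), and this call was lost when any 1 of 5 libraries was left out (every one but SETDB2-up library 3).

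Kif1a, the main carrier of synaptic and dense-core vesicles (chromosome 1, 93015455 to 93102039), had 38661, 41661 and 40295 in SETDB2-up against 38648, 39874 and 39067 in NC-up libraries. Its groups overlap and it did not pass (0.04 ± 0.05 SE, adjusted p = 0.700 in limma). The other 4 kinesin-3 genes, Kif1c, Kif13a, Kif13b and Kif16b, ranged from -0.01 to 0.12 on the log2 scale, with the highest in Kif16b, an endosome motor.

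The ratio of Kif1b to Kif1a within a library does not depend on the library's scaling. It was 1.05, 1.02 and 0.946 in SETDB2-up libraries 1 to 3 against 0.894, 0.906 and 0.907 in NC-up libraries, without overlap. Of 8 such ratios between related chains, only this one and that of Dync1li2 to Dync1li1 had groups that did not overlap. An exact permutation test (two-sided, n = 3 each) gave p = 0.1 for each of the pair, the smallest it can give, and 0.4 after adjustment over the 8. The design cannot pass 0.05 with this test. Kif1b transcripts are 50.2% GC and Kif1a transcripts 55.1%.

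**Figure D2:**
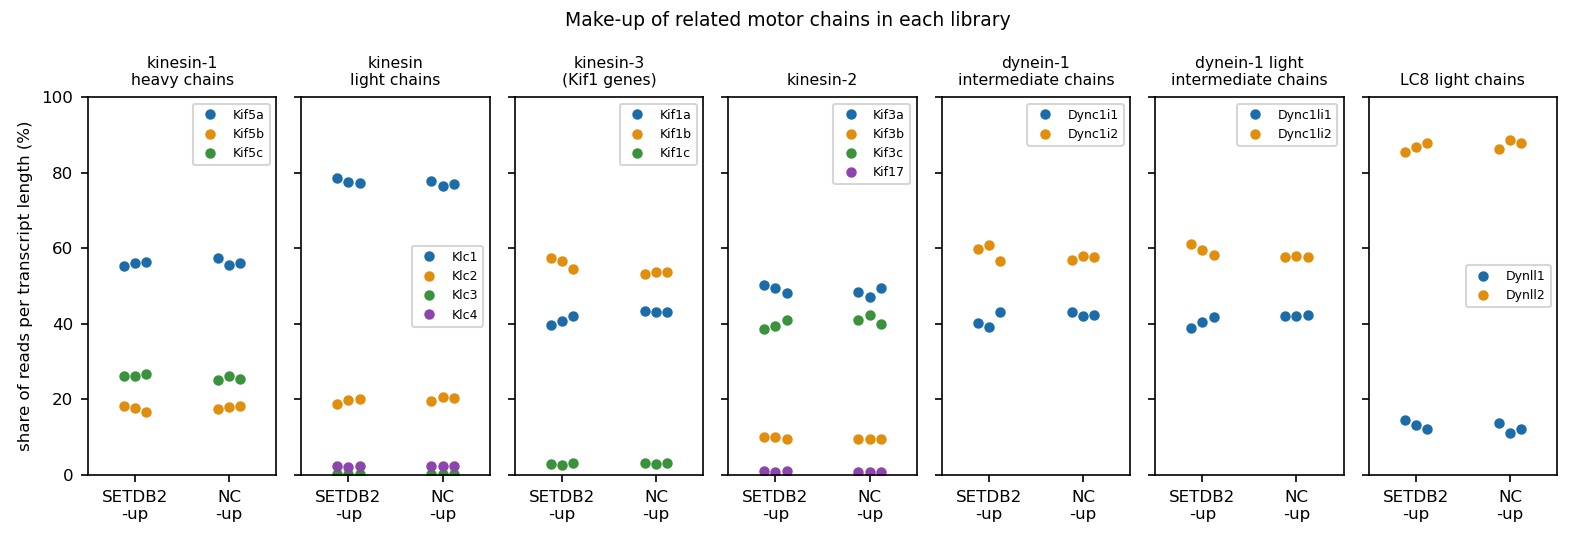
Share of each gene (vertical axis, percent) among the reads per transcript length of its set of related chains, for the 3 SETDB2-up libraries (left in each panel) and the 3 NC-up libraries (right). The make-up differs little between groups: Kif5a is at 55.4% to 57.5%, Klc1 at 76.6% to 78.6% and Dynll2 at 85.5% to 88.8% in all 6 libraries. Kif1b and Dync1li2 are among the genes whose share lies higher in every SETDB2-up library.

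In the kinesin-2 group, whose Kif3 proteins pair up to carry axonal cargo and to build cilia, none passed. Kif3a (chromosome 11, 53565701 to 53604248) had 6050.4, 5984 and 5596 normalised reads in SETDB2-up against 5352, 5232 and 5623 in NC-up libraries. SETDB2-up library 3 lies within the NC-up range (log2 fold change 0.12 ± 0.06 SE, adjusted p = 0.151 in limma). Kif3b was at 0.15 ± 0.06, Kif3c at 0.04 ± 0.05 and Kif17, a homodimeric motor at low level, at 0.28 ± 0.16 (SE). Kif3b and Kif17 had groups without overlap.

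Kif21a led the kinesin-4 group. It restrains microtubule growth at the cell cortex and, in human, mutations in it cause a congenital disorder of eye movement (chromosome 15, 90933275 to 91050382). Normalised reads were 27388, 26513 and 24664 in SETDB2-up against 22251, 22451 and 23442 in NC-up libraries, without overlap. The log2 fold change was 0.20 ± 0.06 (SE, adjusted p = 0.0177 in limma), and the call was lost without NC-up library 1, NC-up library 2, SETDB2-up library 1 or SETDB2-up library 2. Its relative Kif21b was much lower, at 470.3 to 519 in SETDB2-up and 463 to 586 in NC-up libraries, and did not pass. Kif27, also low, was at -0.12 ± 0.29 (SE). Kif7, a ciliary regulator of Hedgehog signalling, had 111, 129 and 121 in SETDB2-up against 179, 158 and 145 in NC-up libraries, all below NC-up, at -0.41 ± 0.15 (SE, adjusted p = 0.0775 in limma).

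Kif2a is a kinesin-13, a class that takes microtubules apart at their ends instead of walking along them (chromosome 13, 106958996 to 107022355). It had 1819, 1858 and 1607 in SETDB2-up against 1306, 1490.2 and 1581 in NC-up libraries. SETDB2-up library 3 lay just above NC-up library 3. The log2 fold change of 0.27 ± 0.08 (SE, adjusted p = 0.0216 in limma) was lost when NC-up library 1 or 2 or SETDB2-up library 1 or 2 was left out. Kif24, also of this class, had 57.9, 64.1 and 40.2 in SETDB2-up against 35.0, 46.9 and 28.6 in NC-up libraries, which overlap (0.54 ± 0.28 SE, adjusted p = 0.204 in limma).

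The 3 genes that fell were outside the axonal transport families named so far. Kifc3 and Kifc2 are C-terminal kinesins that walk towards minus ends, and Kif19a is known in mouse for controlling the length of motile cilia. Kifc3 (chromosome 8, 95099828 to 95202826) had 925, 929 and 990.5 normalised reads in SETDB2-up against 1227, 1208 and 1174 in NC-up libraries. The groups lie well apart, the log2 fold change was -0.34 ± 0.07 (SE, adjusted p = 0.00269 in limma), and the call held whichever single library was left out. Kif19a (chromosome 11, 114764970 to 114791166) had 1959.8, 1968 and 2151 in SETDB2-up against 2388, 2563 and 2333 in NC-up libraries, also without overlap (-0.26 ± 0.06 SE, adjusted p = 0.00925 in limma). Kifc2 (chromosome 15, 76659784 to 76668196) had 1202, 1236 and 1125 in SETDB2-up against 1384, 1532 and 1349 in NC-up libraries (-0.26 ± 0.07 SE, adjusted p = 0.0188 in limma), again without overlap. The last 2 calls were lost without NC-up library 2 or SETDB2-up library 1. Foxj1, the transcription factor of motile cilia, also fell (-0.33 ± 0.08 SE, adjusted p = 0.0112 in limma), and its transcript is 61.4% GC. It was the 1 that passed among 14 measured genes on a list of axonemal dyneins and Foxj1, beside 8.71% of all tested genes that fell. That list had 7 positive and 7 negative fold changes.

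**Figure D3:**
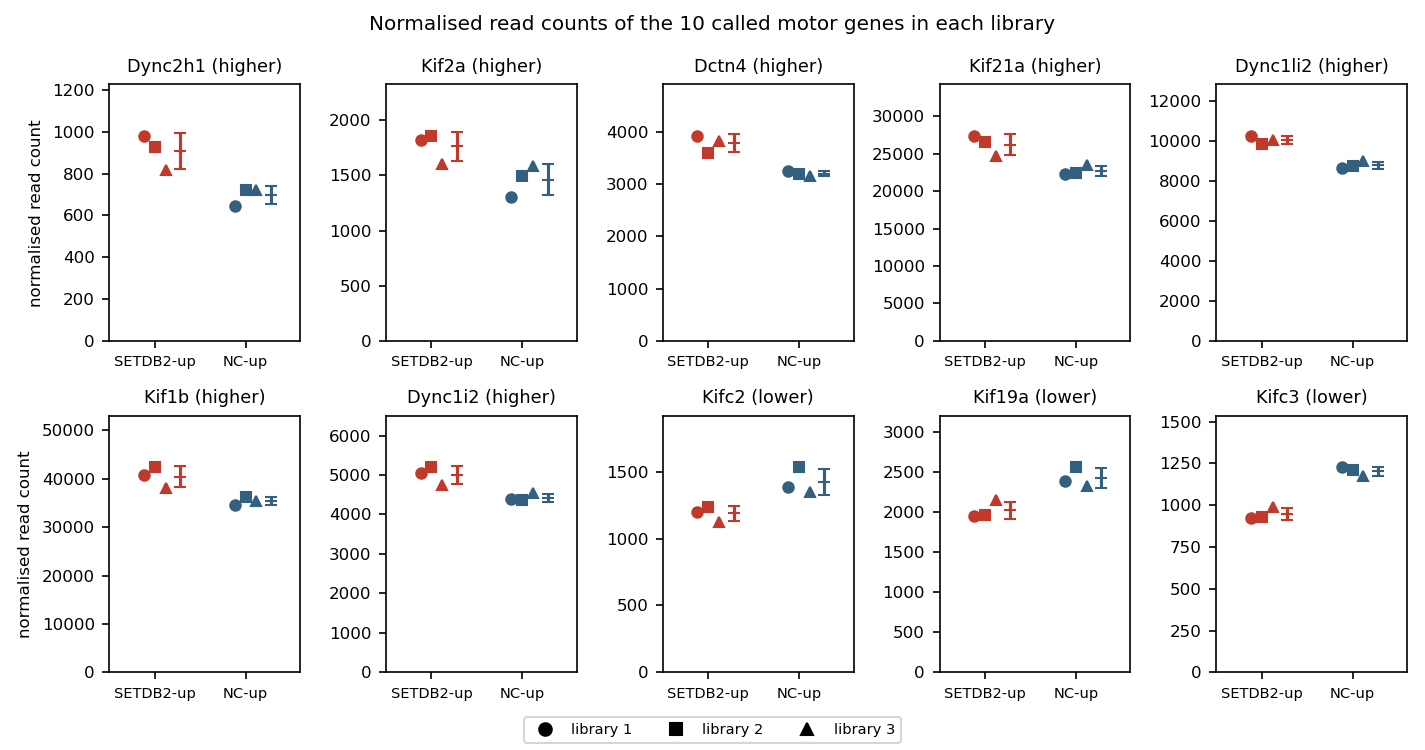
Normalised read counts (vertical axis, from 0) of the 10 called motor genes in each library, SETDB2-up in red at left and NC-up in blue at right, with the mean and standard deviation beside the points. In all 10 panels the groups do not overlap, and SETDB2-up library 3 (triangle) is the SETDB2-up library nearest to NC-up for 7 of the 10, namely the risers Dync2h1, Kif2a, Kif21a, Kif1b and Dync1i2 and the fallers Kifc3 and Kif19a.

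The remaining kinesins did not pass. Kif26a and Kif26b, an atypical pair known for signalling roles, were at -0.32 ± 0.13 and 0.17 ± 0.07 (SE), and the ciliary kinesins Kif6 and Kif9 were at 0.24 ± 0.40 and 0.13 ± 0.20. The 10 mitotic kinesins, motors of the spindle and of cytokinesis, summed to 333 to 373 normalised reads in SETDB2-up and 354 to 375 in NC-up libraries. Their log2 fold changes ran from -0.42 in Kif22 to 0.65 in Kif18a. None of the 10 passed, with a lowest limma adjusted p of 0.215, and every one had overlapping groups. Standard errors ran from 0.21 in Kif20a to 0.50 in Kif18a. Of 13 measured cell cycle genes 1, the checkpoint kinase Bub1b, rose (0.73 ± 0.22 SE, adjusted p = 0.0304 in limma), beside 7.71% of all tested genes. None of the 13 fell, and 9 had positive and 4 negative fold changes.

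Cytoplasmic dynein-1, the main minus-end motor of axons, is built around the heavy chain Dync1h1, which holds the motor domain. Dync1h1 (chromosome 12, 110601395 to 110666944) had 46992, 52961 and 45482 normalised reads in SETDB2-up against 45351, 46399 and 43002 in NC-up libraries. SETDB2-up libraries 1 and 2 were the highest of the 6 and library 3 lay within the NC-up range, and the gene did not pass (0.11 ± 0.06 SE, adjusted p = 0.262 in limma).

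Both intermediate chains, which bind dynactin, were measured. Dync1i2 (chromosome 2, 71211676 to 71263303) had 5057, 5195 and 4755 in SETDB2-up against 4383, 4355 and 4533 in NC-up libraries, without overlap. The log2 fold change was 0.18 ± 0.06 (SE, adjusted p = 0.0369 in limma), and this call was lost when any 1 library other than SETDB2-up library 3 was left out. Dync1i1, the form enriched in neurons (chromosome 6, 5725600 to 6028039), had 3362, 3309 and 3583 in SETDB2-up against 3282, 3126 and 3285 in NC-up libraries. These groups did not overlap, but their difference of 0.08 ± 0.06 (SE) did not pass (adjusted p = 0.373 in limma). The ratio of Dync1i2 to Dync1i1 overlapped, at 1.33 to 1.57 in SETDB2-up and 1.34 to 1.39 in NC-up libraries.

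The light intermediate chains hold the adaptors that link dynein to cargo. Dync1li2 (chromosome 8, 104417674 to 104443050) had 10241, 9835 and 10021 in SETDB2-up against 8608, 8726 and 8974 in NC-up libraries, well apart. Its log2 fold change was 0.19 ± 0.05 (SE, adjusted p = 0.0153 in limma), lost without NC-up library 1, NC-up library 2 or SETDB2-up library 1. Dync1li1 was at 0.09 ± 0.06 and did not pass. The ratio of Dync1li2 to Dync1li1 was 2.80, 2.61 and 2.47 in SETDB2-up against 2.44, 2.45 and 2.42 in NC-up libraries, the second of the pair of ratios without overlap.

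Dynein-2 drives transport from the tip of the cilium back to its base. Dync2h1, its heavy chain (chromosome 9, 6928550 to 7178306), had 981, 927 and 816 normalised reads in SETDB2-up against 647, 724 and 723 in NC-up libraries. It had the largest fold change of the 10 called genes, 1.30-fold (log2 fold change 0.38 ± 0.09 SE, adjusted p = 0.00569 in limma), and lost its call among single omissions only without SETDB2-up library 1. Its light intermediate chain Dync2li1 had 197 to 240.0 in SETDB2-up and 159.9 to 250 in NC-up libraries, which overlap, and did not pass (0.24 ± 0.16 SE, adjusted p = 0.338 in limma).

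None of the 8 dynein light chains passed. Dynll1 and Dynll2 encode the small LC8 proteins, which serve dynein and many other complexes. Dynll2 (chromosome 11, 87979525 to 88003817) had 21496, 22429 and 24415 in SETDB2-up against 23213, 25325 and 25914 in NC-up libraries (-0.12 ± 0.06 SE, adjusted p = 0.177 in limma). Dynll1 (chromosome 5, 115297110 to 115300990) had 2977, 2806 and 2766 in SETDB2-up against 3025, 2619 and 2922 in NC-up libraries (-0.00 ± 0.06 SE, adjusted p = 0.994 in limma). Both overlap, and Dynll2 held 86.7% ± 1.16 of the LC8 reads per length in SETDB2-up and 87.7% ± 1.27 in NC-up libraries (SD, n = 3 each). The Dynlt1 genes of chromosome 17 are near-identical copies whose reads the counting could split. Dynlt1a, at 305, 342 and 286 in SETDB2-up against 243, 270.1 and 215 in NC-up libraries, did not overlap and just missed the threshold (0.36 ± 0.12 SE, adjusted p = 0.0504 in limma). Dynlt1c and Dynlt1f were at 0.50 ± 0.24 and 0.59 ± 0.31, and Dynlt1b, which lies opposite a more abundant pseudogene, at -0.02 ± 0.27 (SE). Dynlrb1 and Dynlt3 were at -0.13 ± 0.06 and 0.15 ± 0.07.

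Of the 6 dynactin subunits 1 passed. Dctn1, the large subunit that touches the microtubule (chromosome 6, 83165909 to 83200118), had 17133, 18873 and 19841 in SETDB2-up against 19117, 20159 and 19558 in NC-up libraries, which overlap (-0.08 ± 0.06 SE, adjusted p = 0.406 in limma). Dctn4, a subunit at the pointed end of the dynactin filament (chromosome 18, 60526154 to 60558766), had 3919, 3588 and 3819 in SETDB2-up against 3250.2, 3189 and 3147 in NC-up libraries. Its groups lie apart, with a log2 fold change of 0.24 ± 0.06 (SE, adjusted p = 0.00792 in limma), and among single omissions its call was lost only without SETDB2-up library 1 (adjusted p = 0.0557). Dctn6 and Dctn5, also of the pointed end, were at 0.21 ± 0.07 (adjusted p = 0.0628) and 0.13 ± 0.07 (adjusted p = 0.223). Dctn3 was at -0.11 ± 0.07 and Dctn2, which overlaps the more abundant Kif5a on the opposite strand, at -0.02 ± 0.06.

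Adaptors and regulators of the motors were listed separately, and 54 of 55 were in the table. Of these 54, 10 rose and 3 fell. The rising share is above the 7.71% of all tested genes, and the falling share is below their 8.71%. The median log2 fold change of the list was -0.01. Capza1, which caps the dynactin filament and actin filaments, had 1295, 1247 and 1279.6 normalised reads in SETDB2-up against 841, 964 and 1008 in NC-up libraries (log2 fold change 0.45 ± 0.08 SE, adjusted p = 0.000712 in limma). Its call held in each of 15 alternative fits, the correction for base composition included. Hook3, an adaptor that activates dynein, rose by 0.41 ± 0.08, Bicd1, another dynein adaptor, by 0.38 ± 0.09, and Actr10, a pointed-end dynactin subunit, by 0.28 ± 0.06 (SE). Ppfia2, a liprin that works with Kif1a, rose by 0.39 ± 0.09, Mapre1, which tracks growing microtubule plus ends, by 0.27 ± 0.06, and Spag9, a scaffold that binds both motors, by 0.24 ± 0.06. Mapk8ip1, a scaffold that binds kinesin-1, fell, with 12732, 13736 and 14784 in SETDB2-up against 15854, 16550.0 and 16644 in NC-up libraries (-0.25 ± 0.06 SE, adjusted p = 0.00685 in limma).

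Fold changes of all genes followed the base composition of their transcripts, and those of the motor genes did so as well. Of all genes in the decile with the lowest GC content 27.8% rose and 0.901% fell. The decile with the highest GC content had 0.193% rising and 35.7% falling. The 7 motor genes that rose have transcripts of 38.6% to 50.2% GC, and the 3 that fell have 59.5% to 60.6%. Among members under 50% GC, 26 of 31 had a positive fold change, beside 74.2% of all genes under 50% GC. From 50% GC upward it was 11 of 30, beside 29.1% of all such genes. Of the adaptors named above, Hook3, Bicd1, Actr10, Ppfia2, Mapre1, Spag9 and Capza1 have 37.0% to 44.1% GC and Mapk8ip1 has 60.9%.

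After each library was corrected for its trend with GC content, none of the 10 calls remained. In that fit 1 motor gene rose (1.64%, beside 1.95% of genes tested there) and 0 fell (beside 3.4%). At an unadjusted p under 0.05 limma had 12 motor genes higher (19.7%, beside 9.5% of genes tested there) and 2 lower (3.28%, beside 10%). The gene called in that fit was Kif5a, with a log2 fold change of 0.17 ± 0.05 (SE, adjusted p = 0.0399 in limma), which had not passed before. Kif1b kept nearly its whole fold change, at 0.17 ± 0.05 (adjusted p = 0.0525), and Dync2h1 stood at 0.23 ± 0.08 (adjusted p = 0.107). Kif2a was at 0.03, Dync1i2 at 0.04, Kif19a at -0.01 and Kifc2 at -0.04, while Kifc3 was at -0.11 ± 0.06 (adjusted p = 0.376). Dync1h1 and Kif1a, with GC contents of 53.7% and 55.1%, were at 0.18 ± 0.06 (adjusted p = 0.0781) and 0.15 ± 0.05 (adjusted p = 0.0764). Of the adaptors 2 rose and 1 fell in that fit, with Capza1 among the risers, and Mapk8ip1 was at 0.00. Genes whose direction changed included Kif5b, at -0.12, and Dctn1, at 0.13. Whether the trend with GC content arose in the tissue or in library preparation was not tested.

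**Figure D4:**
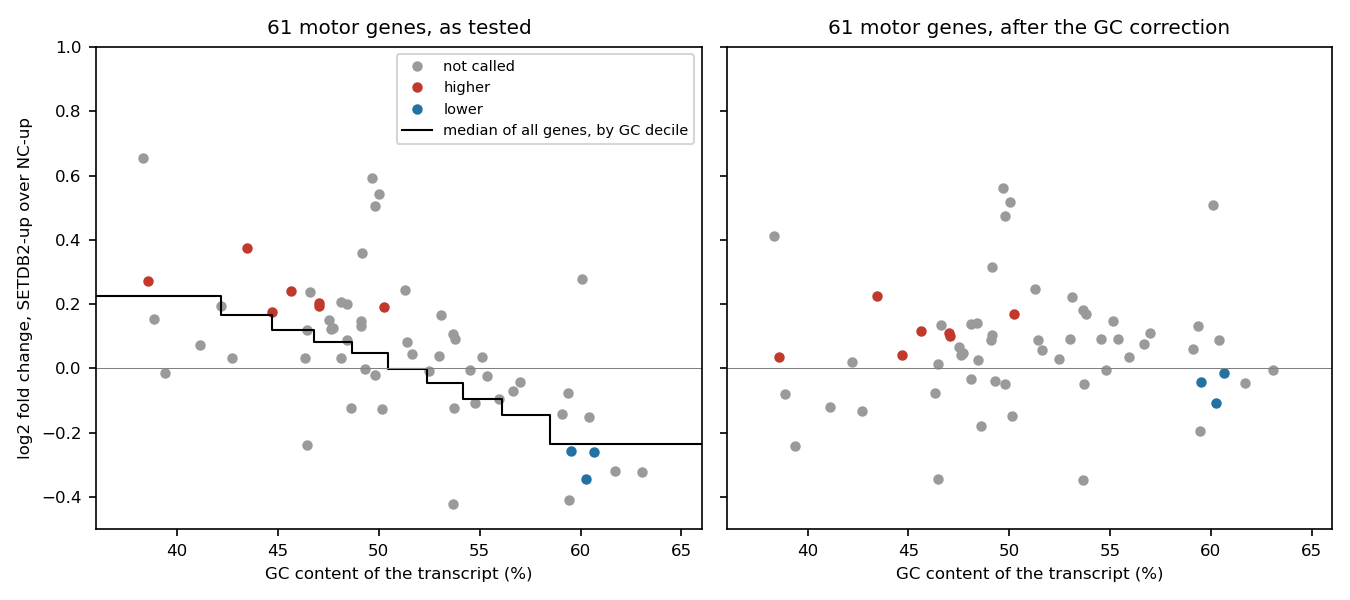
Log2 fold change (SETDB2-up over NC-up, vertical axis) against the GC content of the transcript (horizontal axis, percent) for the 61 motor genes, as tested (left, with the median of all genes in each decile by GC content as a black line) and after the GC correction (right). Colours give the calls as tested in both panels. At left the risers lie at 38.6% to 50.2% GC, all above the falling line of all genes. The fallers lie at 59.5% to 60.6% GC, all below that line. At right the 10 lie between -0.11 and 0.23.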

How the data were processed

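Messenger RNA libraries of mouse trigeminal ganglion, 3 SETDB2-up and 3 NC-up, were analysed. Per the labels' protocols, poly-T beads captured the mRNA and the libraries keep strand. FastQC and HISAT2 were run with GRCm38, per the submitters' processing notes. The sources used here do not give how reads were counted (tool, strand, annotation), scaled and filtered. The deposited signal values are read counts that the authors divided by 1 factor per library, as the values show: 100% are whole multiples of a step (tolerance 0.001 read), so reads were recovered. A floor of 3 reads equals 0.128 to 0.155 CPM. No 2 libraries of a group were alike within sampling noise, with chi-square over its degrees of freedom at 3.95 to 9.87.

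The test was limma (3.58.1, R 4.3.3, with trend) on log2(value + 1) over the 16387 genes that reached 1 in 3 or more libraries, with Benjamini-Hochberg adjustment over all of them and calls at 0.05. Fold changes are on that scale and understate changes of low genes. Alternatives were edgeR (4.0.16) and DESeq2 (1.42.0) on recovered reads, a pseudocount of 0.1, no filter, the replicate number as a block, a loess GC correction, a minimum on the estimated fold change and omission of libraries. Scripts were checked on simulated counts. Transcript length and GC content are those of 1 GENCODE M21 transcript per gene (GRCm38, 15541 genes, all 61 motor genes); promoters are from RefSeq. Coordinates are the table's, in GRCm38. None of the 10 called motor genes lies opposite a gene with at least 4 times its reads.

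The motor genes and lists were chosen with earlier results of these data known. Named were the 8 called members with the smallest p in each direction, 12 fixed members, other called members, up to 3 uncalled members per role and 8 called adaptors. Scn9a, Rbfox3, Mag, Prx, Foxj1 and Bub1b were among the smallest p of their lists. Some marker values are not reported here.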

Additional observations from a re-analysis of the deposited data

How the results depend on the processing

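The 7 rises and 3 falls were the same genes in edgeR with TMM or RLE factors, and DESeq2, a pseudocount of 0.1 and no filter gave 8 rises, those 7 included, and the same 3 falls. Leaving out 1 library gave 0 to 12 rises and 1 to 6 falls of motor genes, 6 to 12 and 1 to 6 of adaptors, and 1082 to 3335 changed genes of all tested (2690 with all libraries). Without both SETDB2-up libraries with liver transcripts there were 0 rises and 0 falls of motor genes in limma, 1 and 0 of adaptors and 447 changed genes. A minimum on the estimated fold change beside the adjusted p, set above the 1.21-fold of Kif2a and below the changes of Dync2h1 and Kifc3, left those last 2 as 1 rise and 1 fall of motor genes, 4 and 0 of adaptors and 1440 genes in all. After the GC correction there were 1 rise and 0 falls of motor genes, 2 and 1 of adaptors and 831 changed genes. GC content and the replicate block together gave 1622 changed genes, with 7 rises and 2 falls of motor genes, of which 2 rises were among the 7. The replicate block alone gave 12 rises and 5 falls of motor genes, 13 and 8 of adaptors and 3618 changed genes. Same-numbered libraries correlated weakly in their deviations from the group means (r from 0.0359 to 0.0484, each the best match of its library), a hint from the data and not from the design, so the numbers are not taken to pair the libraries.

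Reversed directions are listed here only for the genes named by the rule above, none of them called in the main fit except Mapk8ip1. Other motor genes also changed direction after the GC correction, such as Dynlt3, from 0.15 to -0.08. In the fit with GC correction and replicate block, Kif5b was called lower and Dctn1 higher. After the GC correction, alone or with the replicate block, Kif5b was at -0.12, Klc1 at 0.0349, Dctn1 at 0.13, Klc2 at 0.0881, Klc4 at 0.0596, Kif21b at 0.0772 and Mapk8ip1 at 0.000459 on the log2 scale. Without both SETDB2-up libraries with liver transcripts Kif5b was at -0.0102 and Dctn1 at 0.0172. Over the omissions of 1 library Dynll1 ran from -0.0616 to 0.0421, Kif27 from -0.29 to 0.10, Kif21b from -0.16 to 0.00914 and Kif14 from -0.47 to 0.0903. The cause was not tested. With 3 libraries a group, members under 100 normalised reads had standard errors too wide to detect changes of the size seen in the abundant motors.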
